A study of Homo sapiens with 4 samples.

Results

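Long noncoding RNA genes are transcribed and processed much like messenger RNA genes but code for no known protein. The genes described here were those of the array whose symbol is a numbered LINC name (a long intergenic noncoding RNA), an SNHG name (a host gene of small nucleolar RNAs) or a MIR-HG name (a host gene of microRNAs), together with MALAT1 and EPB41L4A-AS1. They numbered 168 of the 18132 genes that had a probe set of their own on the array, and 232 probe sets measured them. The rule names 11 individual genes, and 2 of these, MALAT1 and EPB41L4A-AS1, had a probe set paired with them alone. Another 25 symbols that the rule admits stood only on probe sets shared with other named genes and were not used. Of the 168 genes, RefSeq lists 167 as long noncoding RNA genes, and 1, LINC01296, had an identifier that is not in the RefSeq table used. By role, 11 were hosts of small nucleolar RNAs (snoRNAs), 6 were hosts of microRNAs, 1 was a nuclear body RNA (MALAT1) and 150 were numbered LINC genes, of which 62 once carried an open reading frame name such as C21orf109, the former name of LINC00189.

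The RNA came from OE33, an established human cell line of oesophageal adenocarcinoma, and was hybridised to 4 Affymetrix Human PrimeView arrays. In the knockdown group (n = 2) the cells were transfected with the siRNA pool ON-TARGETplus SMARTpool ARID1A, and in the mock group (n = 2) with the ON-TARGETplus Non-targeting Pool, both at 50 nM with a lipid reagent, and all were harvested 48 hours later. ARID1A belongs to the BAF form of the SWI/SNF remodelling complex and binds DNA, and the complex slides and ejects nucleosomes at promoters and enhancers, and the series asked which genes lie downstream of its loss. Each siRNA pool was tested in 1 cell line only. The labels call the replicates biological without saying more, so whether they were separate cultures is not stated. The p-values rest on the spread between arrays of a group, moderated by that of all probe sets, and not on a spread between cell lines or siRNA pools.

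Long noncoding RNAs work in different ways, and the classes measured here differ in them. SNHG genes carry snoRNAs in their introns. The introns are trimmed to mature snoRNAs that guide the chemical modification of ribosomal RNA, while the spliced exons are often destroyed by nonsense-mediated decay. MicroRNA host genes are cut by the microprocessor to release hairpins, so the array, which was primed with oligo(dT), reads the polyadenylated host transcript and not the mature microRNA. MALAT1 is an abundant nuclear RNA that gathers at splicing speckles.

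The values are log2 signals after the RMA method, which sets all arrays to a common distribution. The signal of a probe set depends on its probes as well as on the amount of RNA, so signals of different genes are given as measured and are not an order of abundance. A change is the mean of the knockdown arrays minus the mean of the mock arrays. It was tested with limma, a moderated linear model over all 49293 probe sets, two-sided, with Benjamini-Hochberg adjustment over all of them and a threshold of 0.05. A gene with several probe sets is represented by the one with the highest mean signal over the 4 arrays. In a culture measured as a whole, fewer cells that make an RNA and less of it per cell cannot be told apart.

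The knockdown itself was present. At its main probe set ARID1A read 7.53 and 7.53 after knockdown and 9.28 and 9.33 in mock, which left 29.2% of the mock signal (log2 change -1.78, SE 0.0718, limma adjusted p = 0.0218). Its other probe sets, all dimmer, were at 32.9%, 38.2%, 38.7%, 77.7% and 108% of mock. The mean of all its probe sets had a log2 change of -1.07. The epithelial markers EPCAM, KRT8, KRT18, KRT19, CDH1, CLDN4 and ELF3 had mean signals of 10.8 to 14.6. The median signal of all tested probe sets was 5.90. None of the 5 fibroblast and 4 measured leukocyte markers reached that median. The endothelial marker VWF (6.12) and the 3 neuronal markers RBFOX3, SNAP25 and SYP (5.94 to 7.36) did reach it. Array medians ran from 5.89 to 5.93. For the actin control, the log2 signal at the 3′ end minus that at the 5′ end was 1.21 and 1.10 after knockdown but 1.04 and 0.995 in mock, while for GAPDH the same difference ran from 0.199 to 0.215 over all 4. The actin measure, a sign of RNA quality, moved with the groups, and its part in the results below was not tested.

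No long noncoding RNA gene passed the test. Over all genes 0.403% did (73 of 18132), while 0 of the 168 did, and the smallest adjusted p in limma among them was 0.0994, that of LINC03006. Every change lay between -0.41 and 0.34. Over all genes, 339 of 18132 had a change of more than 0.5 in either direction. Only 43 of these were among the 7518 genes below the median signal, where 139 of the 168 lay. The 95% confidence intervals of all 168 stayed within -0.784 and 0.741, so a 2-fold change of any of these probe set signals lay outside its interval, and for 144 of them a change of 0.5 did too. RMA understates changes of dim probe sets, and most of these were dim, so the bounds are for the signals and not for the RNAs.

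Before adjustment, 14 of the 168 genes (8.33%) had a p under 0.05 in limma, against 17% of all genes. Higher signals after knockdown made up 5 of the 14 (2.98% of the 168, against 9.76% of all genes) and lower signals 9 (5.36%, against 7.25%). The median change of the 168 was -0.04, with 61 positive and 107 negative, and that of all genes was -0.00427. Both knockdown arrays read below both mock arrays for 41 of the 168 (24.4%), against 23.6% of all genes, and above them for 20 (11.9%), against 25.8%.

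The shares moved with the signal. Only 29 of the 168 genes (17.3%) had a mean signal at or above the median of all tested probe sets, compared with 58.5% of all genes. Among these 29, 7 (24.1%) had an unadjusted p under 0.05, against 22.3% of all genes at such signals. The 4 higher compare with 14% of those genes and the 3 lower with 8.3%. Both knockdown arrays lay above both mock arrays for 8 of the 29, against 34.6% of genes, and below for 9, against 25.9%. The adjusted test passed 0.669% of genes at such signals and 0.0266% of those below the median. Among the 139 below the median, 7 (5.04%) had an unadjusted p under 0.05, 1 higher and 6 lower, against 9.58% of all genes there. The knockdown arrays lay above the mock arrays for 12 of the 139, against 13.3% of genes, and below for 32, against 20.5%. In the dim range lower values were also the more frequent ones over all genes, with 5.77% lower and 3.8% higher. Most markers of other cell types lay in the same range, and some moved with the groups. The summed log2 signal of the 4 endothelial markers was 22.0 and 21.9 after knockdown and 22.6 and 22.9 in mock, and that of the 5 fibroblast markers was 23.1 and 22.3 against 23.2 and 23.8. The fibroblast marker DCN had a change of -0.44 (limma adjusted p = 0.0934) and the endothelial markers KDR, CDH5 and PECAM1 had changes of -0.36, -0.21 and -0.20, sizes like those of the most changed dim members. Not all markers of other cell types fell. The summed signals of the leukocyte markers overlapped between the groups, and so did those of the neuronal markers. Among the leukocyte markers, CD14 and CD3E had changes of -0.20 and -0.19, but PTPRC and LYZ had changes of 0.17 and 0.07. Both knockdown arrays lay above both mock arrays for PTPRC. VWF and the fibroblast marker COL3A1 had changes of -0.04 and -0.01. The part of background in the dim members' values was not tested.

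**Figure D1:**
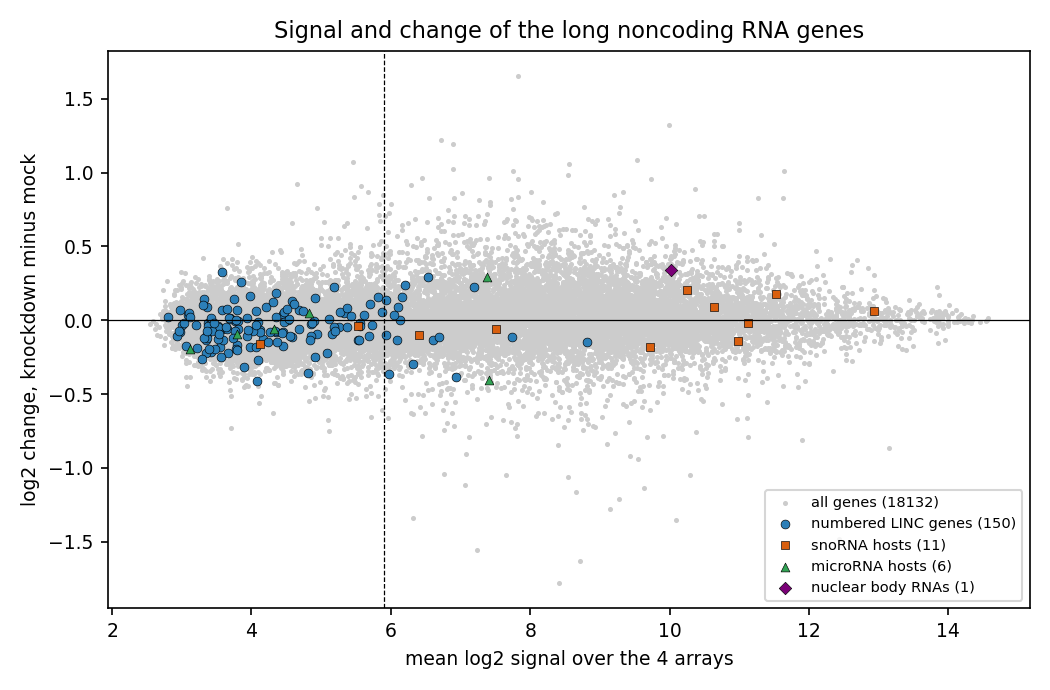
Log2 change (knockdown minus mock) against the mean log2 signal over the 4 arrays, for all 18132 genes in grey and the 168 long noncoding RNA genes by class; the dashed line is the median signal of all tested probe sets, 5.90. The numbered LINC genes crowd to the left of that line, 9 of the 11 snoRNA hosts lie to its right, and no long noncoding RNA gene leaves the band from -0.41 to 0.34.

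MIR22HG, the host gene of miR-22, read lower after knockdown at each of its 5 probe sets. Its main probe set, whose probes can match other transcripts (suffix _s_at), read 7.13 and 7.28 after knockdown and 7.66 and 7.56 in mock. Both knockdown values lay below both mock values, and the signal was at 75.4% of mock (log2 change -0.41, SE 0.0876, 95% interval -0.625 to -0.189, unadjusted p = 0.00419, limma adjusted p = 0.128). All 5 probe sets of MIR22HG had negative changes, from -0.41 to -0.26, with unadjusted p in limma from 0.00285 to 0.0441. In none of them did the groups overlap. Of the 47 members with several probe sets, MIR22HG was the 1 gene (2.13%) for which every probe set had an unadjusted p under 0.05, against 4.3% of the 11734 genes with several probe sets. No overlap at any probe set, with 1 sign, was seen for 4 of the 47, MIR22HG, SNHG32, MIR99AHG and LINC03040 (8.51%, against 14.4% of genes). The signs were mixed for 18 of the 47 (38.3%, genes 52.8%), all negative for 18 (38.3%, genes 24.2%) and all positive for 11 (23.4%, genes 23%). The probe sets of a gene read the same RNA samples, so their accord is not a further replicate.

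The microRNAs that lie within the measured host genes in RefSeq show what these transcripts carry. They are written 5′ to 3′ as in RefSeq (GRCh38.p14), with the seed, bases 2 to 8, in capitals, since the seed sets which messenger RNAs a microRNA pairs with. The MIR22HG hairpin gives both arms of miR-22, at chr17:1713914-1713935 and chr17:1713952-1713973 on the minus strand.
hsa-miR-22-3p: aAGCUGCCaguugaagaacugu
hsa-miR-22-5p: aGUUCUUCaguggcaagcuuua
MIR1915HG holds miR-1915 at chr10:21496576-21496595 on the minus strand, and MIR205HG holds miR-205, known from squamous and basal epithelia, at chr1:209432166-209432187 on the plus strand.
hsa-miR-1915-3p: cCCCAGGGcgacgcggcggg
hsa-miR-205-5p: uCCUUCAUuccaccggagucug
MIR181A1HG holds a pair of microRNAs that share the seed ACAUUCA, at chr1:198859108-198859130 and chr1:198858925-198858947 on the minus strand.
hsa-miR-181a-5p: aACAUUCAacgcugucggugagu
hsa-miR-181b-5p: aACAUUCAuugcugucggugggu
The mature forms were not measured, so nothing in these data gives their levels.

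The promoter of MIR22HG, from 250 bases before to 50 bases after its RefSeq start (GRCh38.p14, chr17:1716161-1716460, minus strand), is shown because all probe sets of this gene had changes of 1 sign. Capitals mark GC boxes (GGGCGG) and CCAAT boxes (CCAAT) on either strand, which were searched after the values were seen.
MIR22HG: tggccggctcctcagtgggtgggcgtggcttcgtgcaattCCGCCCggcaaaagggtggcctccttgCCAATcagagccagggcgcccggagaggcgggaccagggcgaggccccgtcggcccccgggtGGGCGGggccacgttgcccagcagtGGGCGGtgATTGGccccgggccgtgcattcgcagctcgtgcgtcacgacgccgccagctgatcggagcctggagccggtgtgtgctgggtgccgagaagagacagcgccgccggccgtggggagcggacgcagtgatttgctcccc
The window held 3 GC boxes and 2 CCAAT boxes, and 72.3% of its bases were G or C, against a median of 58.7% over all RefSeq promoters. GGGCGG stood in 45% of all 35116 RefSeq promoter windows of this length and in 26.1% of the 142 windows of the long noncoding RNA genes, of which 126 had an entry. CCAAT stood in 34.6% and 34.5%. No match to TGANTCA, the AP-1 site, to CACGTG, the E-box, or to TATAAA was found in the MIR22HG window. Over the members' windows TGANTCA stood in 11.3% (all promoters 7.71%), CACGTG in 7.75% (7.26%) and TATAAA in 14.1% (11.5%), both strands searched. A match is a description of letters only.

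The other microRNA hosts gave smaller or uneven values, and 4 of the 6 hosts had mean signals below the array median. MIR1915HG read 7.75 and 7.30 after knockdown and 7.07 and 7.40 in mock, so the groups overlapped (log2 change 0.29, limma adjusted p = 0.486). Without knockdown replicate 1 its change was 0.07. MIR99AHG, host of miR-99a, let-7c and miR-125b-2, read 2.98 and 3.07 against 3.17 and 3.27, where 4.47% of all probe sets had a lower signal (change -0.19, limma adjusted p = 0.323). Its groups did not overlap, but such a signal is near the lowest on the array. MIR205HG had a change of 0.05, MIR3667HG of -0.06 and MIR181A1HG of -0.09, each with an unadjusted p in limma of at least 0.448.

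**Figure D2:**
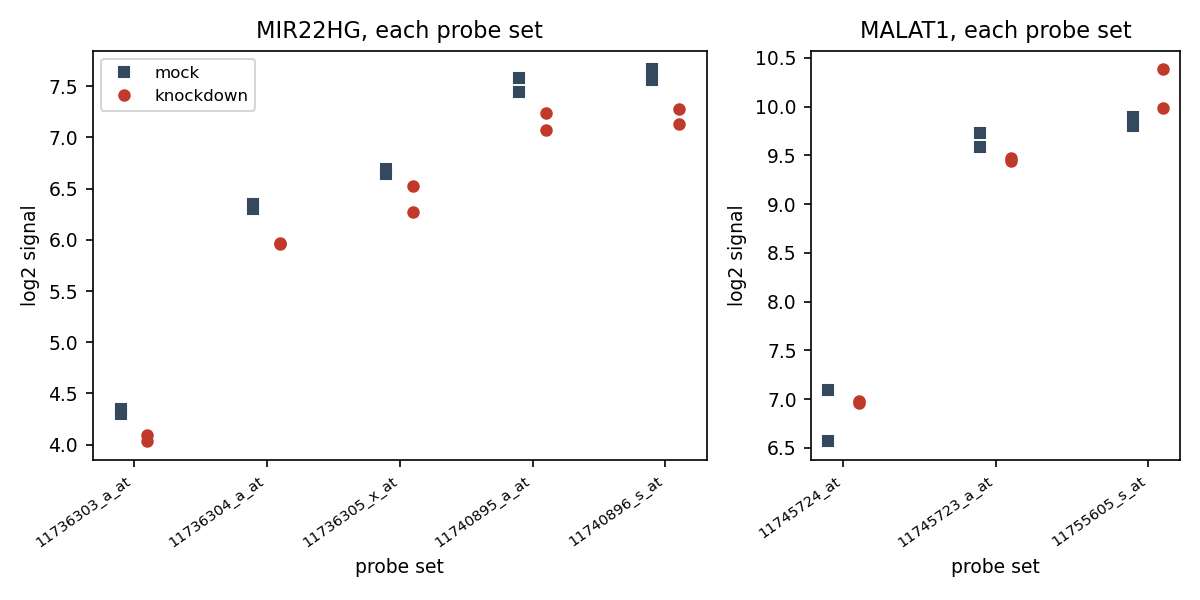
Log2 signal of every probe set of MIR22HG (left, 5 probe sets) and MALAT1 (right, 3 probe sets) in the 2 mock arrays (squares) and the 2 knockdown arrays (circles). For MIR22HG the knockdown arrays lie below the mock arrays on each probe set, with changes from -0.41 to -0.26, while for MALAT1 they lie above them on 1 probe set, below on another and between them on the third.

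MALAT1, the speckle RNA, was the clearest case of probe sets that disagree. Its main probe set read 9.99 and 10.38 after knockdown and 9.80 and 9.89 in mock, with no overlap (log2 change 0.34, SE 0.140, limma adjusted p = 0.319). That change was 0.54 without knockdown replicate 1 and 0.14 without knockdown replicate 2. The second read 9.45 and 9.47 against 9.73 and 9.58, also without overlap but in the other direction (change -0.20, limma adjusted p = 0.323). The third read 6.95 and 6.98 against 7.09 and 6.57, which overlapped (change 0.14, limma adjusted p = 0.748). None passed the test, and no direction can be given for MALAT1 from these values. The main probe set ends in _s_at, a type whose probes can match other transcripts. The actin measure of RNA quality stands beside these values too, and its part was not tested.

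The snoRNA hosts were mostly bright, and as a class they did not move in a common direction. Of the 11, 9 had a mean signal at or above the array median, 4 had a positive and 7 a negative change, and the median was -0.04, with a range of -0.18 to 0.21. None passed the test, and 1 had an unadjusted p under 0.05 in limma, against 17% of all genes. Both knockdown arrays lay above both mock arrays for 4 of the 11 and below them for 4, against 34.6% and 25.9% of all genes at or above the median signal. EPB41L4A-AS1, which holds the snoRNA gene SNORA13, was that gene. Its 1 probe set, also of the _s_at type, read 10.34 and 10.36 after knockdown and 10.18 and 10.11 in mock (log2 change 0.21, SE 0.0732, limma adjusted p = 0.261). Both knockdown arrays lay above both mock arrays.

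SNHG32, which holds the snoRNA genes SNORD48 and SNORD52, read 11.61 and 11.62 after knockdown and 11.47 and 11.41 in mock. Its change was 0.17 (SE 0.0725, 95% interval -0.006 to 0.355, limma adjusted p = 0.322), and its other probe set had the same change of 0.17. SNHG29, the brightest probe set of the class, read 12.95 and 12.99 against 12.93 and 12.88 (change 0.06, limma adjusted p = 0.716). SNHG7 read 10.66 and 10.70 against 10.64 and 10.54 (change 0.09, limma adjusted p = 0.627), and its other, dimmer probe set had a change of -0.08. In these 3 genes too the main probe set had both knockdown arrays above both mock arrays, by margins that the fit did not separate from the spread.

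On the other side stood SNHG1, SNHG12, SNHG9 and SNHG28, whose knockdown arrays lay below the mock arrays. SNHG1, which RefSeq shows around 9 snoRNA genes, read 9.53 and 9.71 against 9.87 and 9.73 (change -0.18, limma adjusted p = 0.433), and leaving out knockdown replicate 1 gave -0.09 and leaving out mock replicate 1 gave -0.11. SNHG12 read 10.88 and 10.93 against 11.13 and 10.97 (change -0.14, limma adjusted p = 0.480), with a change of -0.10 at its other probe set. Without mock replicate 1 its main change was -0.06, and without mock replicate 2 it was -0.22. SNHG9 had a change of -0.10 and SNHG28, a dim probe set with a mean of 4.12, of -0.16. For SNHG8, SNHG11 and SNHG17 the groups overlapped. SNHG8 read 11.03 and 11.20 after knockdown and 11.22 and 11.05 in mock, and its change of -0.02 had a 95% interval of -0.267 to 0.230. SNHG17, with a change of -0.04 and an interval of -0.446 to 0.368, was measured least precisely.

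**Figure D3:**
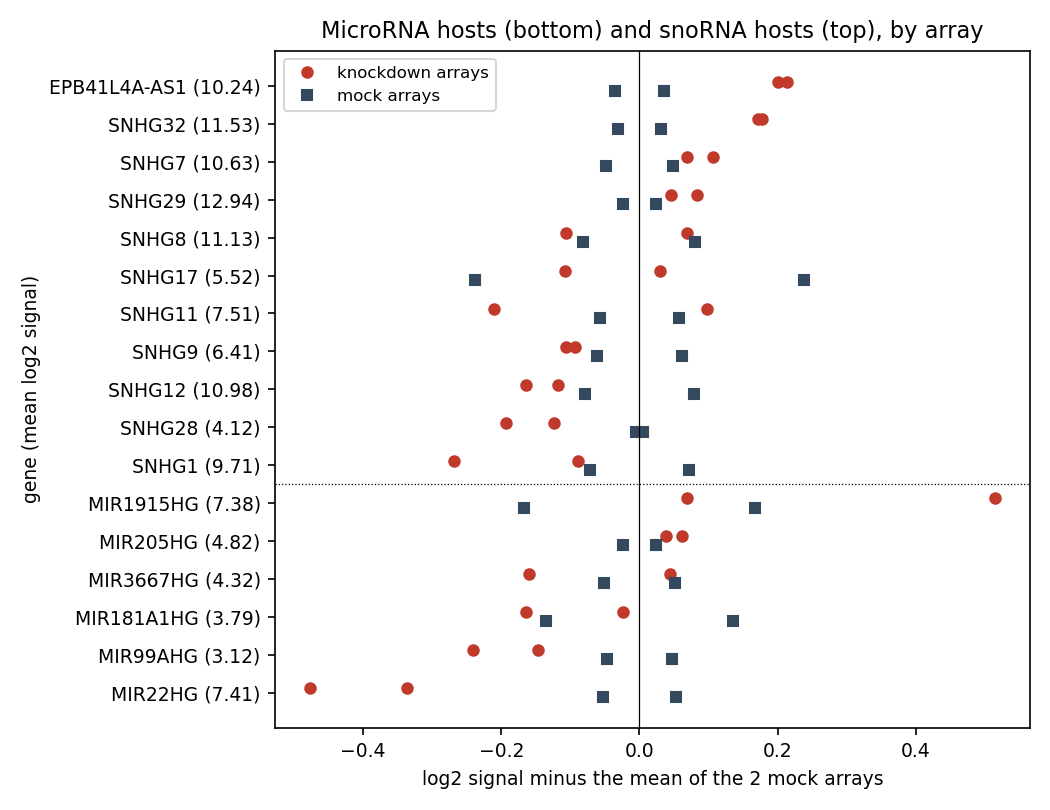
Log2 signal of each array minus the mean of the 2 mock arrays, for the 6 microRNA hosts (below the dotted line) and the 11 snoRNA hosts (above it); circles are knockdown arrays, squares mock arrays, and the mean log2 signal stands in brackets. The knockdown arrays of 4 snoRNA hosts lie above and of 4 below the mock arrays (25.8% and 23.6% of all genes), and MIR22HG stands farthest to the left.

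Many snoRNA hosts belong to the genes that open with a 5′ terminal oligopyrimidine (TOP) tract, a cytosine at the start followed by a run of C or T, which ties their translation to growth signals. The 40 bases around the RefSeq start (GRCh38.p14) are shown for the 5 of 10 hosts with an entry that had such a tract within 5 bases of the start. Capitals mark the tract, searched on the transcribed strand as a C followed by at least 4 bases that are C or T, and the start is base 21 of each line.
SNHG32: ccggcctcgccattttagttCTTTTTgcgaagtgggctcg
SNHG12: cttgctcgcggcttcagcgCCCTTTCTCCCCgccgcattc
SNHG7: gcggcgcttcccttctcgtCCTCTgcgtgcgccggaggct
SNHG8: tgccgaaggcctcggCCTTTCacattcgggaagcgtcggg
SNHG17: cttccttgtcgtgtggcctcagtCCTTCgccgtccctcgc
They lie at chr6:31834896-31834935 (plus), chr1:28581854-28581893 (minus), chr9:136728165-136728204 (minus), chr4:118278742-118278781 (plus) and chr20:38435309-38435348 (minus). A tract within 5 bases of the start stood in 21.1% of all promoter windows, and exactly at the start in 4.07% of them and in 2 of the 10 hosts, SNHG32 and SNHG12. Those 2 genes had changes of opposite sign, 0.17 and -0.14.

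A few snoRNA genes inside these hosts had a probe set of their own, so that host and guest could be set side by side. SNORA13 read 5.04 and 4.97 after knockdown and 5.29 and 5.25 in mock (log2 change -0.27, SE 0.0743, limma adjusted p = 0.191), while its host EPB41L4A-AS1 had a change of 0.21. SNORA71A, in SNHG17, read 4.97 and 4.98 against 4.72 and 4.68 (change 0.27, limma adjusted p = 0.173), while SNORA71C and SNORA71D in the same host had changes of -0.20 and 0.03. SNORA60 in SNHG11 had a change of 0.14 and SNORA78 in SNHG9 of -0.12, beside host changes of -0.06 and -0.10. Of these 6 guests, 2 had an unadjusted p under 0.05 in limma, against 17% of all genes, and none passed the test. Mature snoRNAs have no poly(A) tail, so what these probe sets read after oligo(dT) priming is not settled here.

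The numbered LINC genes made up most of the list and most of its dim signals. Of the 150, 17 had a mean signal at or above the array median, and the median change of all 150 was -0.04, from -0.41 to 0.33. Before adjustment, limma gave 12 of them a p under 0.05, with 4 higher and 8 lower, against 9.76% and 7.25% of all genes. LINC03006 had the smallest p of all members. It read 3.84 and 3.91 after knockdown and 4.28 and 4.29 in mock (log2 change -0.41, SE 0.0735, 95% interval -0.593 to -0.227, unadjusted p = 0.00176, limma adjusted p = 0.0994). The groups were well apart, but 21.9% of all probe sets had a lower signal.

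LINC01000 was the brightest of the lower LINC probe sets. It read 6.80 and 6.68 after knockdown and 7.05 and 7.20 in mock (log2 change -0.39, SE 0.0899, limma adjusted p = 0.145). This probe set ends in _x_at, several other probe sets that match LINC01000 also match related genes, and its second probe set of its own, a dim one, had a change of 0.13. LINC03009 read 5.88 and 5.71 against 6.00 and 6.31 (change -0.36, limma adjusted p = 0.259), also on a probe set with shared probes, and its change was -0.20 without mock replicate 2. The other lower ones were all dim. LINC00189 had a change of -0.32, LINC02647 of -0.26, LINC00597 of -0.22, LINC00575 of -0.21 and LINC00308 of -0.18, with mean signals of 3.29 to 3.98 and limma adjusted p of 0.182 to 0.307. In each of them both knockdown arrays lay below both mock arrays, which their selection by p favours. The other fits counted next reuse the same 4 arrays. How many of all genes keep such a p through them was not counted. LINC03006 has 1 probe set, without shared probes, so the fits on unshared probe sets and on probe set means used the same signals for it. Of the 14 members with an unadjusted p under 0.05, MIR22HG and LINC03006 kept it in all 11 and 10 other fits made for them (other scalings, filters, priors, the replicate block and single arrays left out), and 12 lost it in at least 1. LINC01000 lost it in 1 of 10 and LINC00205 in 7 of 11. LINC00308 lost it in 9 of 10, LINC02562 in 8, LINC00575 in 7, LINC00597 in 6 and EPB41L4A-AS1 in 5, and the other 5 in 2 or 3.

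The 4 LINC genes higher at an unadjusted p under 0.05 in limma had mean signals of 5.19 to 7.19. LINC00847 read 6.57 and 6.78 after knockdown and 6.41 and 6.36 in mock (log2 change 0.29, SE 0.0954, limma adjusted p = 0.238), on a probe set with shared probes, and its change was 0.18 without knockdown replicate 2. LINC00205 read 7.37 and 7.24 against 7.09 and 7.07 (change 0.23, limma adjusted p = 0.260), but its second probe set, with no shared probes, had a change of -0.08. LINC03008 read 6.37 and 6.27 against 6.03 and 6.14 (change 0.24, limma adjusted p = 0.258), on a probe set without shared probes. LINC02562 read 5.24 and 5.36 against 5.15 and 5.01 (change 0.22, limma adjusted p = 0.303). The largest positive change of a LINC gene, 0.33 in LINC00518, rested on knockdown replicate 1, at 3.93 against 3.55 in replicate 2 and 3.43 and 3.40 in mock, and was 0.13 without it. LINC01630, with a change of 0.26 at a mean of 3.85, had groups that met at 3.84.

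**Figure D4:**
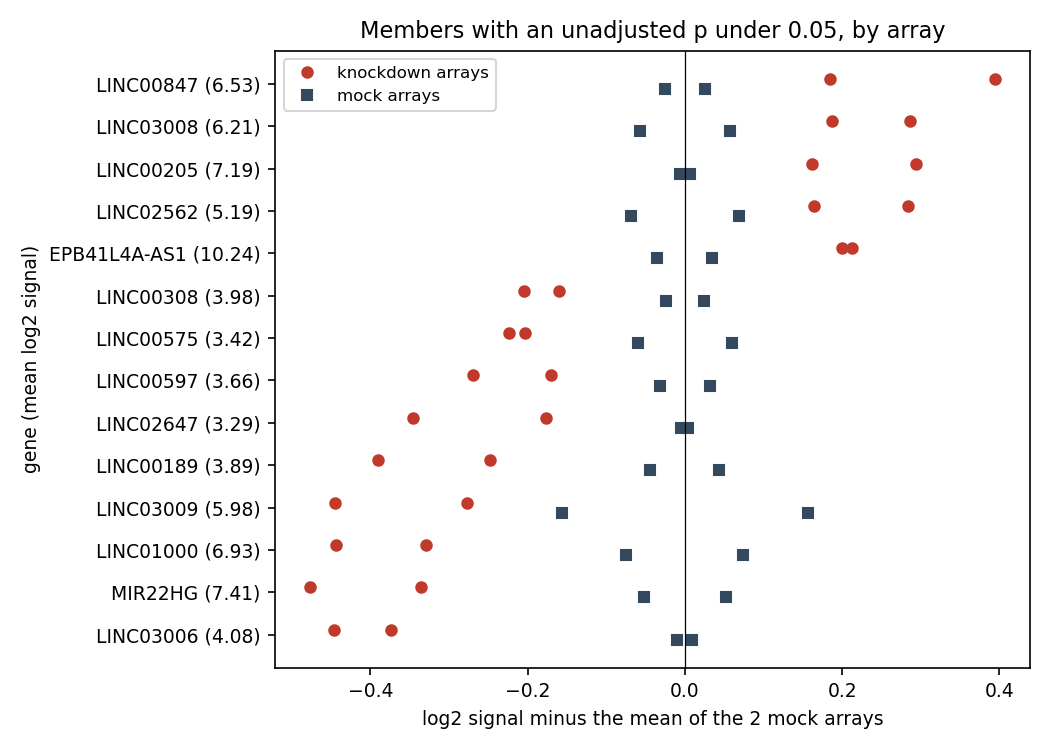
Log2 signal of each array minus the mean of the 2 mock arrays, for the 14 long noncoding RNA genes with an unadjusted p under 0.05; circles are knockdown arrays, squares mock arrays, and the mean log2 signal stands in brackets. All 14 genes have groups that do not overlap, which their selection by p favours, so this is no further result. The knockdown arrays lie on the left for 9 genes and on the right for 5. Over all genes, 23.6% and 25.8% have such groups. Of the 9 genes, 6 have mean signals below the array median.

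Of the 17 LINC genes at or above the median signal, 5 (29.4%) had an unadjusted p under 0.05 in limma, against 22.3% of all genes there, namely LINC00205, LINC01000, LINC00847, LINC03008 and LINC03009. The groups did not overlap for 8 of the 17, 3 higher and 5 lower, against 34.6% and 25.9% of those genes. LINC01547 read 8.83 and 8.67 after knockdown and 8.74 and 9.05 in mock (log2 change -0.15, limma adjusted p = 0.609), and its other probe set had a change of 0.15. LINC03040 read 7.68 and 7.68 against 7.71 and 7.88 (change -0.11), and both of its probe sets had knockdown below mock. LINC02370, LINC00482 and LINC00656 had overlapping groups, with changes of -0.12, -0.13 and 0.16. LINC02693 had 3 probe sets with changes of -0.30, -0.43 and -0.16, and the second of these had an unadjusted p of 0.0377 in limma. The change of its main probe set was -0.50 without knockdown replicate 1 and -0.10 without knockdown replicate 2. LINC02984, a dimmer gene with a mean of 4.80, had a change of -0.36, which moved to -0.12 when mock replicate 1 was left out and to -0.59 when mock replicate 2 was.

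Of the measured genes that lie next to the 14 members in RefSeq, some changed in the direction of the member and some against it. The shares were not counted or set against those of all genes, and the neighbours named here are examples. Of the pair that flank MIR22HG, PRPF8, which codes for a core protein of the spliceosome, had a change of -0.32 (limma adjusted p = 0.167) and WDR81 one of -0.06. COL18A1, beside LINC00205, had a change of 0.43 (limma adjusted p = 0.101), and KLHDC10, beside LINC03008, one of 0.32 (0.140). ZNF92 and VKORC1L1, on either side of LINC03006, had changes of -0.35 and 0.21. MAP3K7CL, beside LINC00189, had a change of 0.46, opposite in sign to the change of -0.32 of the LINC gene. CCSER2, beside LINC02647 (-0.26), had a change of 0.32, and POMZP3, which overlaps LINC03009 (-0.36), one of -0.19. None of these neighbours passed the test, and they were looked up after the members' values were known.

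The proteins that act on such RNAs were read from lists drawn up from textbook knowledge, but with earlier results of these data known. No measured member of these lists passed the test in limma. In the order below, 1 of 15, 0 of 7, 1 of 8 and 4 of 10 had an unadjusted p under 0.05 in limma. Of all genes at or above the median signal, where all but NAF1 lie, 22.3% did. Of the 15 genes of snoRNP assembly and core, 12 (80%) had a negative change, against 46.2% of all genes at or above the median signal, with a median of -0.10. NOP56, of the box C/D core, read 12.41 and 12.33 after knockdown and 12.54 and 12.58 in mock (log2 change -0.19, limma adjusted p = 0.298). GAR1, of the box H/ACA core, NOP58 and the assembly factor NUFIP1 had changes of -0.17, -0.15 and -0.16. The 3 with a positive change were ZNHIT3 (0.16), NOP10 (0.14) and SNU13 (0.08). Both knockdown arrays lay above both mock arrays for these 3 and below them for 10 of the 15 (66.7%). Of all genes at or above the median signal, 34.6% lay above and 25.9% below. Of the nonsense-mediated decay factors 7 of 10 were measured, with a median of -0.01, and the helicase UPF1 had a change of -0.13 (limma adjusted p = 0.415), with SMG1 at -0.10, UPF2 at -0.08 and SMG8 at 0.03. Of the paraspeckle proteins 8 of 10 were measured, with a median of -0.04. The nuclear body RNA NEAT1 had no probe set paired with it alone, so it was not among the members. RBM14 read 10.50 and 10.46 against 10.77 and 10.77 (change -0.29, limma adjusted p = 0.158), and HNRNPK, DAZAP1 and PSPC1 had changes of -0.13, 0.09 and -0.06.

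Polycomb repressive complex 2, which methylates histone H3 and is bound by several long noncoding RNAs, had the most members at an unadjusted p under 0.05 of the 4 lists, 3 higher and 1 lower of 10 measured, against 14% and 8.3% of all genes at or above the median signal, where all 10 lie. JARID2, an accessory subunit, read 8.78 and 8.79 after knockdown and 8.36 and 8.32 in mock (log2 change 0.44, limma adjusted p = 0.0819). SUZ12, a core subunit, read 10.58 and 10.67 against 10.94 and 10.96 (change -0.33, limma adjusted p = 0.145). EZH1, a catalytic subunit, had a change of 0.39 and the accessory subunit MTF2 of 0.27. EZH2, also a catalytic subunit, had a change of -0.04, and its groups overlapped. The groups of JARID2, SUZ12, EZH1 and MTF2 did not overlap, which their selection by p favours. Over the list, both knockdown arrays lay above both mock arrays for 4 of the 10 and below for 2. Of all genes at or above the median signal, 34.6% lay above and 25.9% below. The median of the list was 0.02.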

How the data were processed

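The authors deposited 1 table of log2 signals, a row for each probe set and a column for each array. The submitters' processing notes name RMA and Partek and say nothing of version or role; the log2 scale was inferred from RMA and the range of the values. The build behind the probe sets is not given in the sources used here, so coordinates are given for RefSeq sequences only. Of 49372 probe sets, 79 controls were left out, and of the 49293 tested 44988 had 1 gene, 1832 several and 2473 none in the platform annotation. No depth exists for arrays, and their number limits the precision. limma 3.58.1 in R 4.3.3 (lmFit, eBayes) compared the groups without pairing, on 2 residual degrees of freedom and a prior of 3.62, which was tested on simulated data. SDs and intervals rest on n = 2 a group. The rule, the classes and the lists were chosen with earlier results of these data known. Named were ARID1A and all members with a host, MALAT1 or other own name. The LINC genes named were those brightest, most changed or with an unadjusted p under 0.05 in limma. Of each list 4 genes were named, and of the snoRNP list also the 3 with a positive change. EZH2 of the polycomb list was named beside EZH1. Alternatives were 2 normalizations, a filter on dim probe sets, unshared probe sets, the mean of all probe sets of a gene, a trended robust prior, a replicate block and leaving out each array.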

Additional observations from a re-analysis of the deposited data

How the results depend on the processing

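No long noncoding RNA gene passed the adjusted threshold under centring, quantile normalization, unshared probe sets, the replicate block, the crossed pairing or with any array left out. Those last 3 kinds of fit called no gene at all, ARID1A included, so they say nothing about stability. With probe sets at or above the median signal only, 2 passed (MIR22HG, limma adjusted p = 0.0347, and LINC01000, 0.0417), 6.9% of the 29 left against 9.2% of genes. In that fit 6 were higher (20.7%, genes 17.4%) and 3 lower (10.3%, genes 11.4%) at an unadjusted p under 0.05. With a trended robust prior, 4 passed (MIR22HG 0.0246, SNHG32 0.0284, EPB41L4A-AS1 0.0383, LINC01000 0.0443), 2.38% against 8.68% of genes. With the mean of all probe sets of a gene, 1 passed (LINC03006, 0.0383), 0.595% against 1.96% of genes, and 14 were lower at an unadjusted p under 0.05 (8.33%, genes 7.55%). Over the alternatives in limma the adjusted p ran from 0.0246 to 0.521 for MIR22HG, 0.0417 to 0.605 for LINC01000, 0.0383 to 0.521 for LINC03006, 0.0284 to 0.641 for SNHG32 and 0.0383 to 0.602 for EPB41L4A-AS1. MIR22HG kept its sign and its unadjusted p under 0.05 in all 11, with changes from -0.48 to -0.33. On unshared probe sets 1 member was higher at that p (0.654%, genes 9.21%), and LINC00205, on its other probe set, turned to -0.0781. The cause of these shifts was not tested.

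Leaving out 1 array gave 2 to 8 members higher and 6 to 16 lower at an unadjusted p under 0.05 (1.19 to 4.76% and 3.57 to 9.52%, against 5.23 to 8.05% and 4.29 to 6.58% of genes), a median change from -0.08 to -0.01, and an ARID1A change of -1.80 to -1.75, past no threshold (adjusted p from 0.244 to 0.521). The lower count was 16 without knockdown replicate 1, and the higher count 2 without mock replicate 1 or mock replicate 2 and 8 without knockdown replicate 2. The difference between the 2 knockdown arrays and that between the 2 mock arrays had a correlation of -0.202 over probe sets. This 1 value cannot decide whether same-numbered samples were paired. With the replicate block ARID1A stayed at -1.78 (adjusted p = 0.217), and 4 members were higher and 7 lower (2.38% and 4.17%, genes 6.96% and 4.92%). A crossed pairing, added after seeing the data, gave 7 higher and 14 lower (4.17% and 8.33%, genes 11% and 9.09%), with ARID1A at -1.78 (0.187). Over 39 named members and their alternatives, 405 values in all, 17 changed sign. Signals near the floor of the array limit what can be seen of the dim members.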
